A study of Homo sapiens with 19 samples.

Results

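The dynein light chain genes DYNLL1, DYNLL2, DYNLRB1, DYNLT1 and DYNLT3 were followed in mRNA-seq libraries of HepG2, a cell line from a human liver cancer. They were taken by symbol, 5 of the 34825 gene symbols in the deposited tables, and the set was chosen because DYNLL2 differed between the 2 siRNAs against INO80. All 5 passed the filter on low values in both experiments. In the first experiment cells received a control siRNA (NTG), siINO80#1 or siINO80#2, each at 50 nM. The last pair target INO80, the ATPase of the INO80 chromatin remodelling complex. Each group had 3 libraries, lettered A, B and C, made 72 hours after transfection. In the second experiment cells were kept in DMSO or in 1 μM EPZ-6438, an inhibitor of the histone methyltransferase EZH2, for 3 days before transfection with NTG or with siMCRS1, against MCRS1, another subunit of the INO80 complex. These siRNAs were also at 50 nM, and the libraries were also made 72 hours after transfection. The second experiment held 2 libraries of DMSO with NTG, 3 of DMSO with siMCRS1, 3 of EPZ-6438 with NTG and 2 of EPZ-6438 with siMCRS1. All libraries came from 1 cell line, and nothing in the labels says that replicates were separate cultures, so the p-values measure only the spread between these libraries.

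Cytoplasmic dynein carries cargo toward the minus ends of microtubules. Its heavy chains hold the motor, its intermediate chains form the tail, and 3 families of light chains sit as dimers on the intermediate chains. DYNLL1 and DYNLL2 are the LC8 light chains, small dimers that also bind many proteins outside dynein, among them the BH3-only proteins BIM and BMF and the DNA repair protein TP53BP1. DYNLRB1 is a roadblock light chain, and DYNLT1 and DYNLT3 are Tctex-type light chains. These genes are expressed in most cell types, and hepatocytes use dynein for vesicle traffic and HepG2 cells also for the mitotic spindle.

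DYNLL1 and DYNLL2 code for nearly the same protein, so their coding sequences are shown to make clear how far reads can tell the genes apart. Both run from the start codon to the stop codon, 5′ to 3′, taken from GENCODE transcripts, and capitals mark the bases at which they differ.
DYNLL1: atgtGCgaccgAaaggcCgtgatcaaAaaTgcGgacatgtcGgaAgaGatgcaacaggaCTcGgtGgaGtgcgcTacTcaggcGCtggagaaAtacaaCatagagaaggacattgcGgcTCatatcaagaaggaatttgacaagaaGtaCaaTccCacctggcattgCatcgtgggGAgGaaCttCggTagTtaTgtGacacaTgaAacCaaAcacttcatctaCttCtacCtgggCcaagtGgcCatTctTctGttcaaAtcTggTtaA
DYNLL2: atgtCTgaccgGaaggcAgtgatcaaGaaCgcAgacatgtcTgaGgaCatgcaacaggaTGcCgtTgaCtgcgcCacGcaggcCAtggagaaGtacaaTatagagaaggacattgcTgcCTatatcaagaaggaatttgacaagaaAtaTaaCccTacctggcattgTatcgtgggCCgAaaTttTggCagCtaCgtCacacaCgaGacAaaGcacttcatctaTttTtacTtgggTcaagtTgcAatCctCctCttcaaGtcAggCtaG

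The coding sequences of DYNLL1 and DYNLL2 differed at 55 of 270 bases. Of the 52 codons that differed, 46 coded for the same amino acid and 6 for another. The longest stretch without a difference was 25 bases. Outside the coding sequence the 2 mRNAs were unlike in size: the DYNLL2 transcript used here has 6807 bases, of which 92.0% are 3′ untranslated, and the DYNLL1 transcript has 663. In GRCh38.p14 (RefSeq) DYNLL1 lies on chromosome 12 at 120469842-120498493 and DYNLL2 on chromosome 17 at 58083419-58095542, both on the plus strand. DYNLL1 shares its locus with the noncoding gene NRAV, and the use of strand in counting is not given in the sources used here, so its value may hold reads of NRAV. DYNLRB1 lies on chromosome 20 at 34515602-34540958 on the plus strand. DYNLT1 lies on chromosome 6 at 158636474-158644743 and DYNLT3 on chromosome X at 37838836-37847571, both on the minus strand. The tables also hold 9 light chain pseudogenes, of which 7 were at 0 in all 19 libraries, and none exceeded 1.12 normalized counts in any library.

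The targeted genes were low in the libraries labelled as their knockdowns. INO80 had 1278, 1338 and 1175 normalized counts in NTG, 576, 639 and 609 with siINO80#1, and 440, 456 and 483 with siINO80#2. Its mean was therefore 48.1% and 36.4% of NTG. With siMCRS1, MCRS1 fell to 7.99% of NTG in DMSO and to 7.93% in EPZ-6438, and INO80 itself was at 83.0% and 78.3% (limma adjusted p = 0.039 and 0.0097). Depth ran from 17093574 to 25369547 reads for the INO80 siRNA libraries and from 26038505 to 47397233 for the drug libraries, and all 10 hepatocyte markers were expressed, with medians of at least 2960 normalized counts. Library C of siINO80#2 stood apart from its group: the SD of its log2 differences from its group mates was 0.53, against 0.35 to 0.43 for the other libraries of that experiment. In bulk RNA, fewer cells with a transcript and less of it per cell cannot be told apart.

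DYNLL2, an LC8 light chain, was lower in the siINO80#2 libraries and not in the siINO80#1 libraries. This is the difference for which the genes were chosen, so it is described here without a test. The NTG libraries A, B and C had 2667, 2784 and 2570 normalized counts of DYNLL2. With siINO80#1 they had 2892, 3106 and 2816. With siINO80#2 they had 715, 757 and 599. Every siINO80#1 library was thus above every NTG library, and every siINO80#2 library was far below both groups. The siINO80#2 mean of 690 ± 82.0 (SD, n = 3) was 25.8% of the NTG mean of 2674 ± 107 and 23.5% of the siINO80#1 mean of 2938 ± 150.5. On the log2(value + 1) scale, on which all differences are given, DYNLL2 differed from NTG by 0.14 with siINO80#1 and by -1.96 with siINO80#2. INO80 itself differed by -1.05 and -1.46 from NTG with the same siRNAs.

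The siRNAs differed from each other by -2.09 for DYNLL2, which placed it at rank 9 from the lowest among the 11583 genes whose mean reached 50 normalized counts. GCSHP5 and FAM156B came next below it and HSD17B8 and FAM60DP next above. In that contrast 22.1% of all tested genes passed the threshold, an adjusted p under 0.05. The mean of both siRNAs against NTG rests on the same libraries, so no test is given there for DYNLL2 either.

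**Figure D1:**
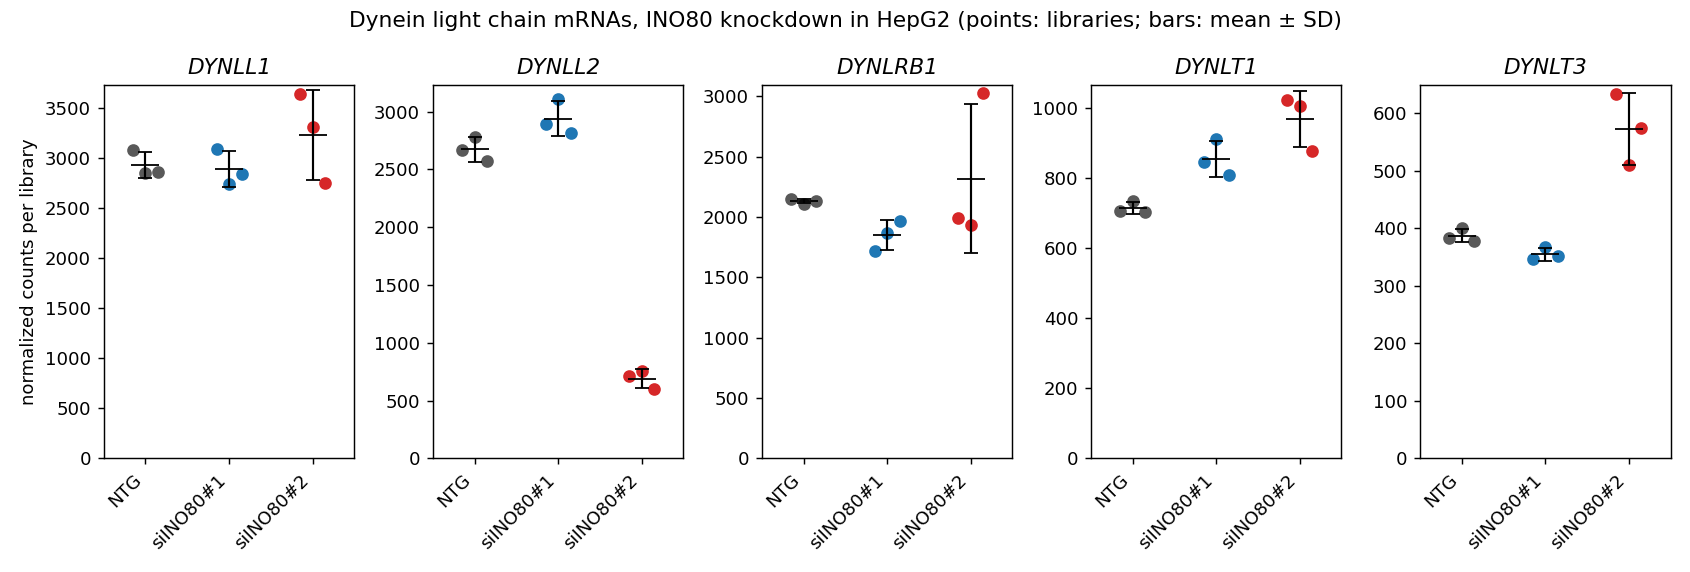
Normalized counts of the 5 light chain genes in each library of the INO80 experiment (vertical axis from 0), by siRNA (horizontal axis); points are libraries and bars are mean ± SD of 3. DYNLL2 sits at 599 to 757 with siINO80#2 against 2570 to 3106 elsewhere, while DYNLT1 is above NTG with both siRNAs.

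DYNLL1, the other LC8 gene, did not pass the test with either INO80 siRNA. Its NTG libraries had 3078, 2849 and 2858 normalized counts, the siINO80#1 libraries 3093, 2742 and 2843, and the siINO80#2 libraries 3638, 3307 and 2751. The 3 groups overlapped. DYNLL1 differed from NTG by -0.02 with siINO80#1 (95% interval -0.24 to 0.20, limma adjusted p = 0.90) and by 0.13 with siINO80#2 (-0.08 to 0.35, adjusted p = 0.27). Without library C of siINO80#2, the lowest of its group, the second difference was 0.25 and passed the threshold (limma adjusted p = 0.017).

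Because the 2 LC8 mRNAs differ in length, their levels were compared per kilobase of transcript. In NTG, DYNLL1 was at 4417 ± 196 normalized counts per kilobase and DYNLL2 at 393 ± 15.7 (SD, n = 3), so DYNLL2 made up 8.18% ± 0.47 of the LC8 pair. That share was 9.03% ± 0.82 with siINO80#1 and 2.05% ± 0.15 with siINO80#2. The sum of the pair per kilobase was 4810 ± 195 in NTG, 4795 ± 261 with siINO80#1 and 4976 ± 686 with siINO80#2, and these ranges overlapped. With siINO80#2 the SD of DYNLL1 alone was 676, more than the whole NTG level of DYNLL2. The overlap could therefore neither show the fall of DYNLL2 nor show that the sum was kept. In the drug experiment the mean share lay between 7.97% and 9.56% in the 4 groups. The order per kilobase in NTG was DYNLL1, DYNLRB1 (3220 ± 28.1), DYNLT1 (979 ± 23.1), DYNLL2 and DYNLT3 (180 ± 5.44), with no overlap between neighbours. These levels depend on the single transcript length used for each gene.

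DYNLT1, a Tctex-type light chain, rose with both INO80 siRNAs. Its NTG libraries had 707, 734 and 703 normalized counts, the siINO80#1 libraries 847, 911 and 810, and the siINO80#2 libraries 1023, 1007 and 877. Every knockdown library was above every NTG library. DYNLT1 was at 120% of NTG with siINO80#1, a log2 difference of 0.26 (SE 0.08, limma adjusted p = 0.026), and at 136% with siINO80#2, a difference of 0.44 (SE 0.08, adjusted p = 0.00099). The rise with siINO80#1 was not past the threshold after rescaling to equal totals (0.18, adjusted p = 0.23), nor without NTG library A (0.071), NTG library C (0.076), siINO80#1 library A (0.057) or siINO80#1 library B (0.10, each a limma adjusted p). For the mean of both siRNAs DYNLT1 differed by 0.35 (SE 0.07, limma adjusted p = 0.0017).

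DYNLT3, the second Tctex-type gene, rose with siINO80#2. Its NTG libraries had 383, 400 and 378 normalized counts, the siINO80#1 libraries 346, 367 and 352, and the siINO80#2 libraries 634, 510 and 574. All siINO80#1 libraries were below all NTG libraries and all siINO80#2 libraries above them. DYNLT3 was at 148% of NTG with siINO80#2, a log2 difference of 0.56 (SE 0.09, limma adjusted p = 0.00044). With siINO80#1 it was at 91.6% and differed by -0.13 (95% interval -0.33 to 0.08), which did not pass the test (limma adjusted p = 0.31). The siRNAs differed from each other by 0.68 for DYNLT3, given without a test because the genes were chosen on that contrast.

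DYNLRB1, the roadblock light chain, did not pass with either siRNA. Its NTG libraries had 2148, 2112 and 2136 normalized counts, the siINO80#1 libraries 1714, 1868 and 1969, and the siINO80#2 libraries 1992, 1935 and 3028. The siINO80#1 libraries were all below NTG, and the siINO80#2 group was spread widely by library C. The difference from NTG was -0.21 with siINO80#1 (95% interval -0.52 to 0.11, limma adjusted p = 0.28) and 0.09 with siINO80#2 (-0.23 to 0.41, adjusted p = 0.62). Without library C of siINO80#2, which enters the shared estimate of spread, the -0.21 of DYNLRB1 with siINO80#1 passed the threshold (limma adjusted p = 0.016).

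With siINO80#1, 1 of the 4 light chain genes tested passed the threshold, DYNLT1, where 41.6% of all tested genes did. With siINO80#2, DYNLT1 and DYNLT3 passed, 2 of 4, where 55.0% of all tested genes did. For the mean of both siRNAs, leaving DYNLL2 out, DYNLT1 and DYNLT3 passed, 2 of 4, against 54.3% of all tested genes. These shares lie near the background, so the counts are no result about the light chains. Both siRNAs were compared with the same NTG libraries.

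The drug experiment took no part in the choice of the genes. DYNLL2 rose with siMCRS1 in both treatments. Its libraries had 5387 and 5470 normalized counts in DMSO with NTG, and 6781, 7350 and 6938 in DMSO with siMCRS1. In EPZ-6438 they had 5127, 5235 and 5877 with NTG, and 7702 and 7621 with siMCRS1. Every siMCRS1 library of DYNLL2 was above every NTG library. The siMCRS1 mean was 129% of NTG in DMSO, a log2 difference of 0.37 (SE 0.09, limma adjusted p = 0.0066), and 142% in EPZ-6438, a difference of 0.50 (SE 0.09, adjusted p = 0.00090). In DMSO the rise of DYNLL2 was not past the threshold after rescaling to equal totals (0.14, limma adjusted p = 0.27). In EPZ-6438 the size of the rise also depended on the processing, from 0.27 to 0.56 over 17 alternatives.

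DYNLT1 had the largest rise of the 5 genes with siMCRS1 in both treatments. Its libraries had 1328 and 1532 normalized counts in DMSO with NTG, and 2875, 2811 and 2885 in DMSO with siMCRS1. In EPZ-6438 they had 1411, 1217 and 1172 with NTG, and 2510 and 3029 with siMCRS1. The 2 siRNA groups did not overlap in either treatment. DYNLT1 was at 200% of NTG in DMSO, a log2 difference of 1.00 (SE 0.12, limma adjusted p = 0.00011), and at 219% in EPZ-6438, a difference of 1.13 (SE 0.12, adjusted p = 3.6e-05).

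DYNLT3 was lower in every siMCRS1 library than in every NTG library of its treatment but did not pass the test. It had 871 and 824 normalized counts in DMSO with NTG, and 709, 673 and 722 in DMSO with siMCRS1. In EPZ-6438 it had 1133, 892 and 926 with NTG, and 780 and 804 with siMCRS1. The log2 differences were -0.27 (95% interval -0.54 to -0.0047, limma adjusted p = 0.087) and -0.30 (-0.57 to -0.04, adjusted p = 0.054). After rescaling to equal totals both passed, at -0.51 (limma adjusted p = 0.0093) and -0.54 (adjusted p = 0.0058). Equal totals was not the only alternative at which either passed. Over 17 alternatives the differences ran from -0.51 to -0.23 in DMSO and from -0.54 to -0.20 in EPZ-6438.

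DYNLL1 and DYNLRB1 did not pass with siMCRS1 in either treatment. DYNLL1 had 6077 and 5529 normalized counts in DMSO with NTG, 7261, 6655 and 5714 in DMSO with siMCRS1, 6827, 6455 and 5283 in EPZ-6438 with NTG, and 7256 and 6874 in EPZ-6438 with siMCRS1. The DMSO groups overlapped and the EPZ-6438 groups did not, by a narrow gap. DYNLL1 differed by 0.17 in DMSO (95% interval -0.12 to 0.46, limma adjusted p = 0.32) and by 0.20 in EPZ-6438 (-0.09 to 0.49, adjusted p = 0.23). After rescaling to equal totals these were -0.07 and -0.04. DYNLRB1 had 3237 and 2768 normalized counts in DMSO with NTG, 3361, 3655 and 2855 in DMSO with siMCRS1, 3175, 3757 and 2796 in EPZ-6438 with NTG, and 3160 and 3197 in EPZ-6438 with siMCRS1. All of its groups overlapped, and it differed by 0.13 in DMSO (-0.18 to 0.44, limma adjusted p = 0.48) and by -0.02 in EPZ-6438 (-0.33 to 0.30, adjusted p = 0.93).

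**Figure D2:**
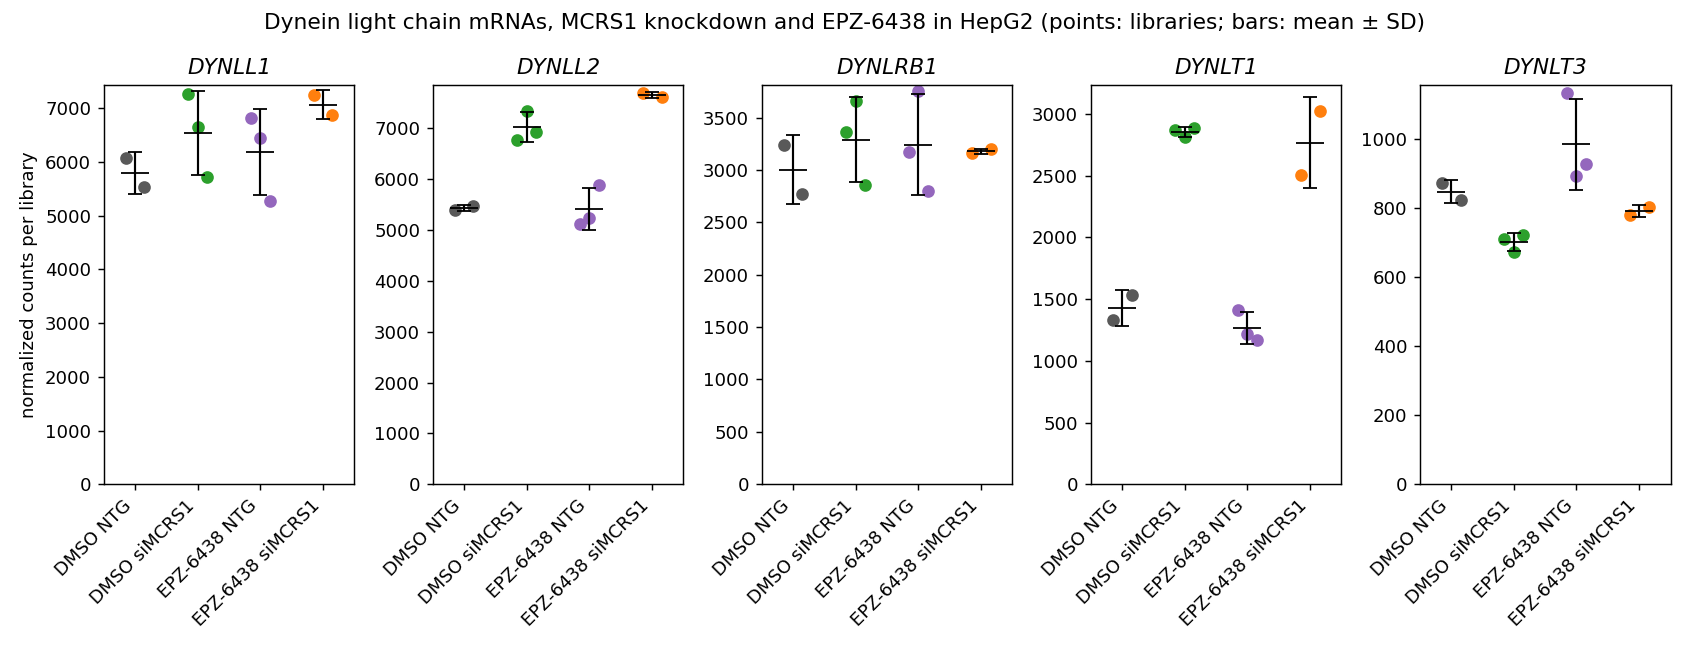
Normalized counts of the 5 light chain genes in each library of the drug experiment (vertical axis from 0), by treatment and siRNA (horizontal axis); points are libraries and bars are mean ± SD of 2 or 3. DYNLT1 sits at 2510 to 3029 with siMCRS1 against 1172 to 1532 with NTG, and DYNLL2 at 6781 to 7702 against 5127 to 5877.

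With siMCRS1, 2 of the 5 light chain genes passed in DMSO and the same 2, DYNLL2 and DYNLT1, passed in EPZ-6438. The background was 47.7% and 53.7% of all tested genes. ATMIN, a transcription factor known to act on the DYNLL1 promoter and itself an LC8 partner, rose with siMCRS1 by 0.71 in DMSO (limma adjusted p = 0.00024) and by 0.78 in EPZ-6438 (adjusted p = 0.00010). With the INO80 siRNAs ATMIN differed by 0.31 (adjusted p = 0.032) and 0.22 (limma adjusted p = 0.097).

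None of the 5 light chain genes passed the threshold with EPZ-6438 in limma or in edgeR, beside NTG or beside siMCRS1. Among all tested genes 0.384% passed with NTG and 0.0908% with siMCRS1. With NTG the log2 differences from DMSO ran from -0.18 for DYNLT1 (95% interval -0.44 to 0.09) to 0.21 for DYNLT3 (-0.06 to 0.48), and that of DYNLL2 was -0.01 (-0.21 to 0.19). With siMCRS1 they ran from -0.05 for DYNLT1 (-0.31 to 0.21) to 0.18 for DYNLT3 (-0.09 to 0.44). Every EPZ-6438 library of DYNLT3 was above every DMSO library with the same siRNA, at 116% of the DMSO mean with NTG and 113% with siMCRS1. DYNLL2 was likewise above with siMCRS1, at 109%. In the other cases the EPZ-6438 and DMSO libraries overlapped. The test of whether the siMCRS1 effect differed between EPZ-6438 and DMSO called 0% of the 14312 tested genes in limma and 0 in edgeR. At an unadjusted p under 0.05 there were 336 in limma and 344 in edgeR. Both are below the share of 0.05 that this threshold passes on average where no gene differs. For DYNLL2 that difference of effects was 0.13 (95% interval -0.15 to 0.42) and for DYNLT1 0.12 (-0.25 to 0.50).

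**Figure D3:**
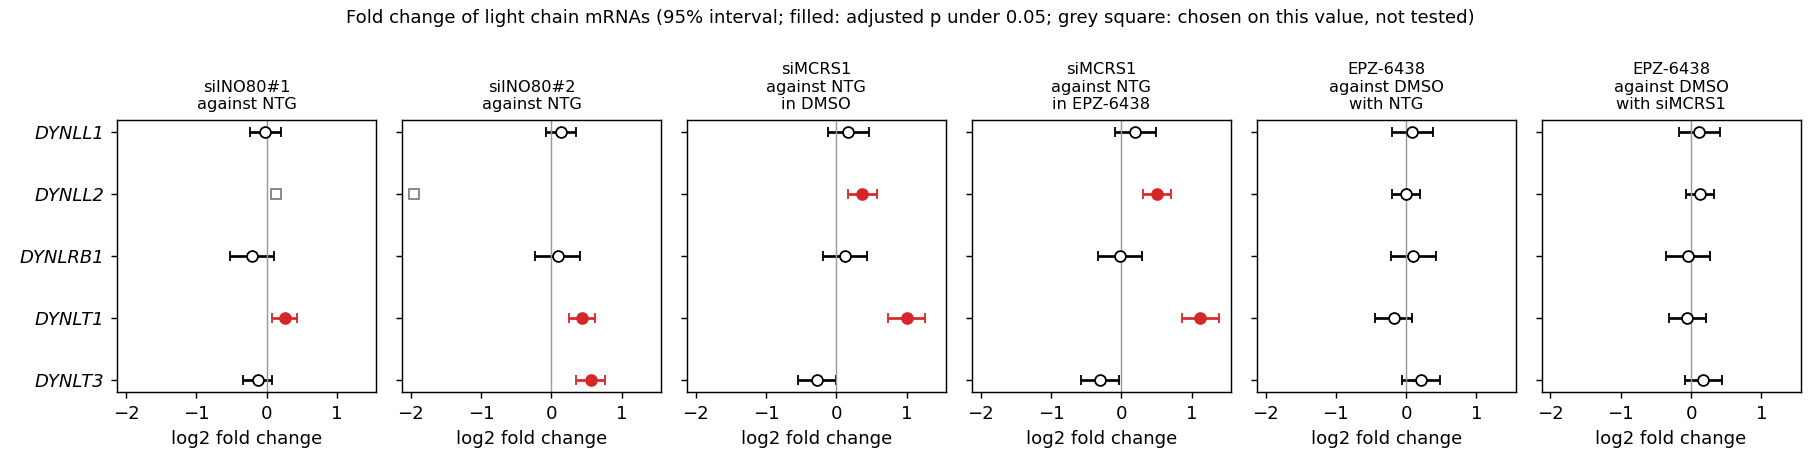
Log2 fold change (horizontal axis, log2(value + 1) scale) of each light chain gene (rows) in 6 comparisons (panels), with 95% intervals from limma. Filled points passed an adjusted p under 0.05. Grey squares, drawn without an interval, are DYNLL2 with each INO80 siRNA against NTG. DYNLL2 was chosen on the difference between these siRNAs, so it was not tested there. DYNLT1 is right of 0 in all 4 knockdown panels, and DYNLL2 is at -1.96 with siINO80#2 but at 0.37 and 0.50 with siMCRS1.

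The other parts of the dynein machinery were read from fixed lists. Each list is described in 4 comparisons, those of siINO80#1, of siINO80#2 and of siMCRS1 first in DMSO and then in EPZ-6438. The share of all tested genes that passed was 41.6%, 55.0%, 47.7% and 53.7% in that order. Of 9 heavy, intermediate and light intermediate chains, 1 rose and 2 fell with siINO80#1, 3 rose and 2 fell with siINO80#2, 2 rose and 3 fell with siMCRS1 in DMSO, and 3 rose and 4 fell with siMCRS1 in EPZ-6438, so 3, 5, 5 and 7 of 9 passed. WDR34, an intermediate chain of the dynein-2 motor that works inside cilia, fell in all 4 comparisons, with log2 differences of -0.96, -1.32, -1.99 and -2.25 (limma adjusted p at most 0.00026). DYNC2LI1, the light intermediate chain of dynein-2, fell with siINO80#1 (-0.67) and siINO80#2 (-0.46, limma adjusted p = 0.0044 and 0.021), and with siMCRS1 in DMSO (-1.51) and EPZ-6438 (-1.55, adjusted p = 2.7e-05 and 1.4e-05). DYNC2H1, its heavy chain, fell with siMCRS1 (-1.71 and -1.64, adjusted p = 0.0046 and 0.0049). Of the cytoplasmic dynein-1 subunits, DYNC1LI1, a light intermediate chain, rose by 0.31 with siINO80#2 and by 0.50 and 0.45 with siMCRS1 (limma adjusted p = 0.0029, 0.0014 and 0.0023). DYNC1I2, an intermediate chain on which light chains sit, rose by 0.34 and 0.49 with siMCRS1 (limma adjusted p = 0.040 and 0.0063). With the INO80 siRNAs DYNC1I2 differed by -0.03 and 0.17 and did not pass (limma adjusted p = 0.81 and 0.12). The median of the list was -0.03, 0.17, 0.23 and 0.27 in these 4 comparisons, where that of all tested genes lay between 1.6e-05 and 0.0060.

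The tables hold 7 other light chain genes, of which 4 passed the filter on low values. None of the 4 rose, and 2 fell with each INO80 siRNA and 3 with siMCRS1 in each treatment. Calls in either direction made up 41.6%, 55.0%, 47.7% and 53.7% of all tested genes in the 4 comparisons. Falls alone were 2921 and 3992 of 14034 genes with siINO80#1 and siINO80#2. With siMCRS1 they were 3523 of 14312 in DMSO and 3847 of 14312 in EPZ-6438. TCTE3, a Tctex-type gene, fell with siINO80#1 (-0.54), siINO80#2 (-0.60) and siMCRS1 in DMSO (-1.10) and EPZ-6438 (-1.17, limma adjusted p = 0.011, 0.0047, 0.0025 and 0.0015). DNAL4, an axonemal light chain of the LC8 type, fell with the INO80 siRNAs (-0.67 and -0.57, limma adjusted p = 0.021 and 0.033) and with siMCRS1 in DMSO and EPZ-6438 (-0.60 and -0.91, adjusted p = 0.034 and 0.0037). The list medians were -0.40, -0.35, -0.68 and -0.80.

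Dynactin is the complex that couples dynein to its cargo. Of its 12 genes 1 rose and 2 fell with siINO80#1, 2 rose and 3 fell with siINO80#2, 3 rose and 3 fell with siMCRS1 in DMSO, and 5 rose and 4 fell in EPZ-6438. That is 3, 5, 6 and 9 of 12, beside 41.6%, 55.0%, 47.7% and 53.7% of all tested genes. The 2 genes for the actin-related filament moved apart: ACTR1B fell with siINO80#2 (-0.86) and siMCRS1 (-1.39 and -1.53, limma adjusted p = 0.0016, 0.00012 and 4.4e-05), whereas ACTR1A rose by 0.27 and 0.44 with the INO80 siRNAs and by 0.39 and 0.31 with siMCRS1 in DMSO and EPZ-6438 (adjusted p = 0.0092, 0.00029, 0.017 and 0.044). DCTN5, of the pointed end of that filament, fell in all 4 comparisons (-0.32 to -0.72). The dynactin medians were -0.05, -0.02, 0.04 and 0.14.

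Of 18 regulators and cargo adaptors tested, 8 rose and 3 fell with each INO80 siRNA, 8 rose and 3 fell with siMCRS1 in DMSO, and 8 rose and 2 fell in EPZ-6438. That is 11, 11, 11 and 10 of 18, beside 41.6%, 55.0%, 47.7% and 53.7% of all tested genes. NDE1, which binds dynein together with LIS1, rose by 0.79 and 1.17 with the INO80 siRNAs and by 0.91 and 0.98 with siMCRS1 (limma adjusted p at most 0.0024). The adaptor BICD1 rose by 0.79, 1.24, 0.97 and 0.76 and the adaptor HOOK3 by 0.52, 0.59, 0.93 and 1.14 in the same order (limma adjusted p at most 0.0013 for each). HOOK2 fell with siMCRS1 (-2.18 and -2.03, limma adjusted p at most 9.5e-05) and differed by -0.36 and -0.11 with the INO80 siRNAs (adjusted p = 0.052 and 0.51). SPDL1, the Spindly protein that brings dynein to kinetochores, fell with the INO80 siRNAs (-0.49 and -0.96, adjusted p = 0.013 and 0.00013) and with siMCRS1 in DMSO (-0.54, limma adjusted p = 0.016), and differed by -0.32 in EPZ-6438 (adjusted p = 0.11). The medians were 0.03, 0.13, 0.34 and 0.36.

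Of 12 LC8 partners outside dynein, 6 rose and 1 fell with siINO80#1, 5 rose and 1 fell with siINO80#2, 5 rose and 2 fell with siMCRS1 in DMSO, and 6 rose and 2 fell in EPZ-6438. That is 7, 6, 7 and 8 of 12, beside 41.6%, 55.0%, 47.7% and 53.7% of all tested genes. BMF, a BH3-only protein held by LC8, rose by 1.13, 1.18, 1.66 and 1.23 in that order (limma adjusted p at most 0.0011). PAK1, a kinase that binds LC8, rose by 0.77, 1.53, 1.33 and 1.31 (adjusted p at most 0.0064). TP53BP1 fell with siMCRS1 (-0.61 and -0.45, limma adjusted p = 0.0024 and 0.010), and NEK9, a mitotic kinase that binds LC8, fell with siINO80#1 (-0.32) and siMCRS1 (-0.53 and -0.38, adjusted p = 0.015, 0.00093 and 0.0049). The medians were 0.29, 0.19, 0.21 and 0.45. Of 13 axonemal dynein heavy chains 7 passed the filter in the INO80 experiment and 5 in the drug experiment. Of these, 1 rose and 1 fell with siINO80#1, and 2 rose and 1 fell with siINO80#2. With siMCRS1, 1 rose and 1 fell in DMSO, and 0 rose and 1 fell in EPZ-6438. The share of all tested genes called in either direction was again 41.6%, 55.0%, 47.7% and 53.7%. Among these heavy chains DNAH17 fell with the INO80 siRNAs (-2.02 and -1.82) and siMCRS1 (-2.08 and -2.46, limma adjusted p at most 0.00027). DNAH14 rose by 0.58 and 0.53 with the INO80 siRNAs. With EPZ-6438 no gene of these lists passed in limma.

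**Figure D4:**
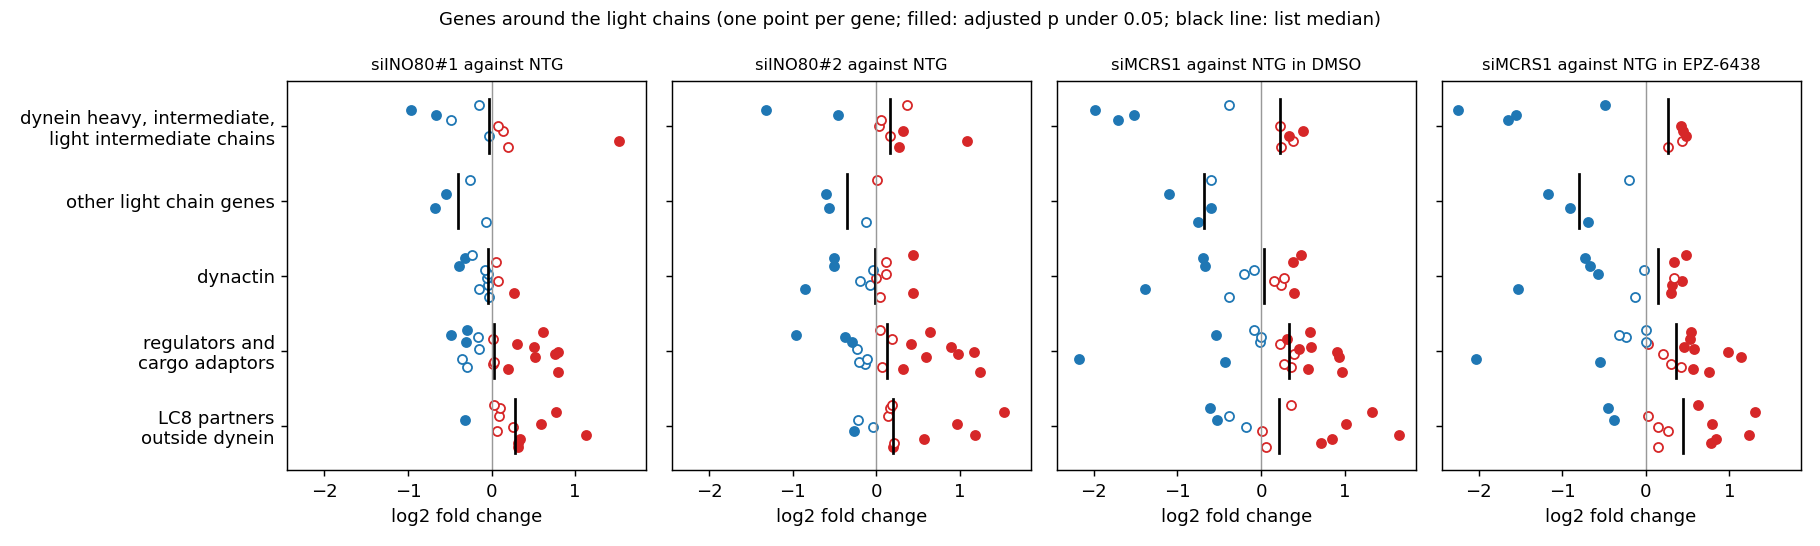
Log2 fold change (horizontal axis) of each tested gene in 5 lists around the light chains (rows) with the INO80 siRNAs and with siMCRS1 (panels); filled points passed a limma adjusted p under 0.05, red above and blue below 0, and black lines are list medians. The medians of the 4 other light chain genes run from -0.35 to -0.80, and the other lists have called genes on both sides of 0 in every panel.

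The genes whose level followed DYNLL2 most closely over the 9 libraries of the INO80 experiment were NUP210, BAG2, DCPS, AKIRIN1 and LEMD3, with Pearson's r of 0.988, 0.988, 0.988, 0.987 and 0.987 among 11419 genes. The 9 points share 3 groups, so r mostly reflects the low siINO80#2 libraries. AKIRIN1 came nearest to DYNLL2 in size, with mean normalized counts of 3793 in NTG, 4839 with siINO80#1 and 1509 with siINO80#2. Over the 10 libraries of the drug experiment the r of these genes with DYNLL2 was -0.75 for NUP210, 0.56 for BAG2, -0.18 for DCPS, 0.56 for AKIRIN1 and 0.91 for LEMD3.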

How the data were processed

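The authors deposited 1 table per experiment of gene-level signal, counts divided by 1 size factor per library; their processing notes name kallisto, DESeq2 and GRCh38, with versions and annotation not given in the sources used here. Each value was a whole multiple of 1 step per library (100% of values within 0.001), which gave the reads, kallisto estimates rounded to whole numbers. Columns were matched to groups by their names. Genes whose mean reached 10 normalized counts (14034 and 14312) were tested as log2(value + 1) with limma 3.58.1 in R 4.3.3 (lmFit, eBayes with trend, all groups of a table in 1 fit), adjusted by Benjamini-Hochberg. Precision follows from the depth and from 2 or 3 libraries a group. Intervals of 95% are limma's. The light chain genes and lists were chosen with earlier results of these data known. Named genes were the light chain genes, the targeted genes, ATMIN, up to 2 called genes per list, direction and comparison with a mean of at least 50, and the 5 genes most like DYNLL2. Fold changes on this scale are understated for low genes. Alternatives were other pseudocounts, filters and scaling, edgeR 4.0.16 on the reads, a replicate block, only the groups compared, and each library left out. Letters in the labels are shared across INO80 groups. The deviations of same-letter libraries correlated at over 0.1 in all 3 pairs of NTG and siINO80#1 (0.14 to 0.26) but in 2 of the 6 pairs with siINO80#2. The scripts were tested on simulated data. Coding sequences and lengths came from GENCODE transcripts, positions from RefSeq. Python 3.11.15 was used elsewhere. ChIP-seq data were left out.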

Additional observations from a re-analysis of the deposited data

Results flagged for a closer look

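The results for DYNLL2 and DYNLT3 stood out because the libraries of the 2 INO80 siRNAs lay on opposite sides of NTG, although with siINO80#1 DYNLT3 did not pass the test and DYNLL2 was not tested. DYNLL2 differed by -2.09 (log2) between siINO80#2 and siINO80#1: every siINO80#1 library, at 2816 to 3106 normalized counts, was above NTG and every siINO80#2 library, at 599 to 757, below it. DYNLT3 differed by 0.68 the other way, with every siINO80#1 library, at 346 to 367 normalized counts, below NTG and every siINO80#2 library, at 510 to 634, above it. Neither difference was tested, since the genes were chosen on that contrast.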

How the results depend on the processing

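With siINO80#1, where 1 of 4 light chain genes passed the threshold, rescaling to equal totals left 0 and a fit of only the groups compared gave 2, and leaving out each library in turn gave 0 to 2. No direction of a called value turned. Over 37 tested values and 27 alternatives, 595 of 620 refits kept their side of the threshold, 15 lost a call and 10 gained one. For the mean of both INO80 siRNAs, DYNLT3 (0.22, limma adjusted p = 0.040) was not past the threshold at equal totals (0.12, 0.27), with no filter (0.064), nor without any single NTG library (0.066 to 0.12), any single siINO80#1 library (0.054 to 0.079) or siINO80#2 library A (0.078), and without siINO80#2 library C DYNLRB1 passed there (-0.16, 0.026). Equal totals moved the median of all genes by -0.11 with siINO80#2, -0.23 for siMCRS1 in DMSO and -0.24 in EPZ-6438, so the split of higher and lower calls went from 3307 and 3523 to 1892 and 5107 in DMSO, from 3839 and 3847 to 2292 and 5333 in EPZ-6438, from 2912 and 2921 to 2164 and 3277 with siINO80#1, and from 3685 and 3930 to 2779 and 4470 for the mean. Calls over all genes with EPZ-6438 beside NTG went from 55 to 20 with no filter, 128 with only the groups compared and 2 to 22 with a library of either NTG group left out. Beside siMCRS1 they went from 13 to 4, 3 and 0 to 26. Calls between the INO80 siRNAs went from 3096 to 1948 and 2042 without siINO80#1 libraries A and C, and those of siMCRS1 in EPZ-6438 from 7686 to 5070 without its library B. Leaving 1 library in a group assumes that it varies like the others. The cause was not tested.

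With a replicate block on the library letter, 1 of 4 and 2 of 4 light chain genes passed with siINO80#1 and siINO80#2, and no call of theirs changed, also for the mean of both. Over 0.1 lay 5 of 9 same-letter correlations of deviations (mean 0.10) and 2 of 18 others (mean -0.05), and in 11 of 18 checks a library's best partner in another group had its letter. Deviations sum to 0 within a group, which ties these means to each other, so the -0.05 is no separate baseline for the 0.10. In the drug experiment no paired analysis was possible because most column numbers are absent from the labels.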

Other observations

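The longest run of identical bases that the DYNLL2 transcript shared with the INO80 transcript was 13 bases. Of 2702 tested genes with transcripts of 5000 to 9000 bases, 71.7% shared a run at least as long with INO80, and the other light chain transcripts, which are shorter, shared 10 to 12. The sequences of the siRNAs were not given in the sources used here, so the shared run cannot show whether they match DYNLL2. That match was not tested.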
